A study of Mus musculus with 3 samples.

Results

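The 38 genes described here serve fatty acid oxidation and uptake. They were chosen by name as the enzymes, carriers and receptors of this route, matched through the current gene symbol or an older alias (Eci1 is listed under its older name Dci), and all 38 were found among the 35451 genes of the array. They comprise 16 mitochondrial genes, 6 peroxisomal genes, 9 genes of uptake and activation, 5 nuclear receptors and 2 microsomal genes. The cells were mouse embryonic fibroblasts (MEF), a primary culture from C57BL/6 embryos minced after their heads, legs and internal organs were taken off, while n-butylidenephthalide (BP) comes from the root of Angelica sinensis. Gene expression was measured in MEF without BP (control), MEF with 10 µg/ml BP (BP10) and MEF with 40 µg/ml BP (BP40), all grown in DMEM with serum and antibiotics, with 1 Agilent mouse whole genome array per condition and 3 arrays in all. The deposited label of the control names no treatment, whereas the study's text calls it a DMSO control, and the time in BP before RNA extraction is not given in the sources used here. No source says how many cultures or embryos each RNA came from.

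Fatty acids enter cells with the help of transport proteins, are bound by fatty acid binding proteins in the cytoplasm, and are activated to acyl-CoA by acyl-CoA synthetases. Long chains then enter mitochondria through the carnitine shuttle and are shortened by repeated rounds of dehydrogenation, hydration, oxidation and thiolysis, while very long and branched chains are first shortened in peroxisomes, and microsomal cytochromes P450 hydroxylate the far end of the chain. Many genes of this route are known targets of the peroxisome proliferator-activated receptors (PPAR), which sense fatty acids and bind DNA as partners of retinoid X receptors (RXR).

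Every value below is the log2 signal of a probe relative to the 75th percentile of the gene spots of its array, so that 0 stands for the signal at that percentile, and a ratio is the difference of this value between 2 arrays. A gene counted as called when its ratio reached 2-fold in either direction and 1 or both arrays showed the probe well above background. Where only 1 array did, the signal on the dim array was raised for the call to a floor, the lowest signal on that array that was well above background, unless it already lay higher. The floor was -5.68 for the control, -5.07 for BP10 and -5.05 for BP40. It entered none of the ratios of the 38 genes. With 1 array per condition there was no spread between cultures and so no p-value could be had, and each ratio compares 2 arrays. BP10 and BP40 were scanned in 1 session and the control in another. An effect of BP and of the scan therefore cannot be told apart against the control, and both of these comparisons share the control array. Of the 59305 gene spots, 81.7% were well above background for the control, 68.3% for BP10 and 69.1% for BP40. For probes with 10 spots, the median SD of log2 signal over those spots was 0.14, 0.08 and 0.09 for control, BP10 and BP40. For genes read by 2 probes, the median SD of their log2 ratios was 0.29 at BP10 and 0.22 at BP40, both against the control, and 0.21 between the doses. The arrays were scaled to their own genes: 6 bright probes for the E1A spike-in RNA had a median log2 ratio of -0.04 for BP10 against control, 0.80 for BP40 against control and 0.77 for BP40 against BP10, and no scaling on them was made. In RNA from whole cultures, fewer cells of a type and less RNA per cell cannot be told apart.

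All 38 genes were well above background on all 3 arrays. In BP10-treated MEF, 6 of the 38 genes (15.8%) were called against the control, beside 13.0% of all genes on the array. Of these 6, only Acads was up-regulated, where 2.68% of all genes were called higher. The other 5, Slc27a2, Acox2, Cyp4a10, Acsl3 and Cyp4a14, were down-regulated, where 10.3% of all genes were called lower. In BP40-treated MEF, 4 of the 38 genes were called, beside 11.6% of all genes. These were Slc27a2, Acox2, Cyp4a14 and Cyp4a10, all down-regulated, beside 9.00% of all genes called lower and 2.59% called higher. Both shares were near those of the whole array. Over the 38 genes the log2 ratio had a median of -0.14 at BP10 and 0.03 at BP40, and over all genes of -0.23 and -0.11. After the median ratio of genes of the same brightness was subtracted, the medians of the 38 genes changed sign, to 0.06 and -0.03. The ratio was within 0.5 of 0 for 19 of the 38 genes at BP10 and for 29 at BP40.

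**Figure D1:**
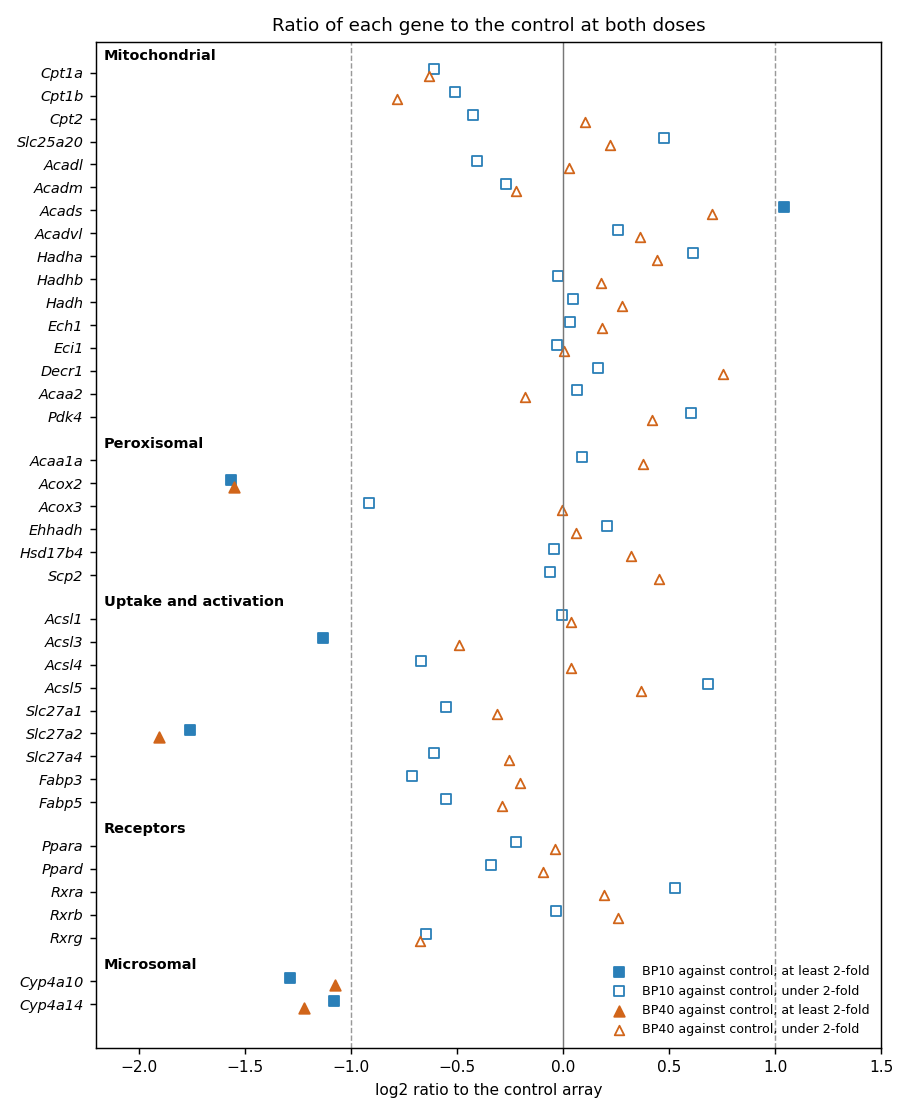
Log2 ratio to the control array (horizontal axis) of each of the 38 genes (vertical axis, grouped by class), with squares for BP10 and triangles for BP40. Filled symbols are at least 2-fold, beyond the dashed lines at -1 and 1: 6 genes at BP10 and 4 at BP40. There are no error bars because each condition had 1 array.

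Most of these calls were lost with another background correction, which also added an offset of 50 to every signal. The background was modeled with the normexp method in place of the scanner software's own correction. Such an offset makes the ratios of dim signals smaller by construction, and its part in the losses was not tested. Calls over all genes also fell, to 4.09% at BP10 and 3.06% at BP40. Of the fatty acid genes, only Cyp4a10 was still called at BP10, with a log2 ratio of -1.14. None of them was called at BP40, where Cyp4a10 was at -0.94. Slc27a2 then had log2 ratios of -0.88 and -0.81 and Acox2 of -0.72 and -0.62 at BP10 and BP40, so that the direction stayed lower at both doses while the size fell below 2-fold.

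The down-regulated genes differed in how bright they were. Slc27a2, Acox2 and Cyp4a14 were dim, with a mean log2 signal over the 3 arrays below -2, as were Cpt1b, Ehhadh and Acsl1. Dim genes were often called on these arrays: among the 19437 genes of the array below -2, 19.3% were called at BP10 and 17.7% at BP40, and their median log2 ratio was -0.52 and -0.43. Among the 16014 genes of -2 or more, 5.26% and 4.21% were called. Of the 32 fatty acid genes of -2 or more, 3 were called at BP10 (9.38%) and 1 at BP40 (3.12%), with median log2 ratios of -0.05 and 0.07 beside -0.11 and 0.02 for all genes of that brightness.

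**Figure D2:**
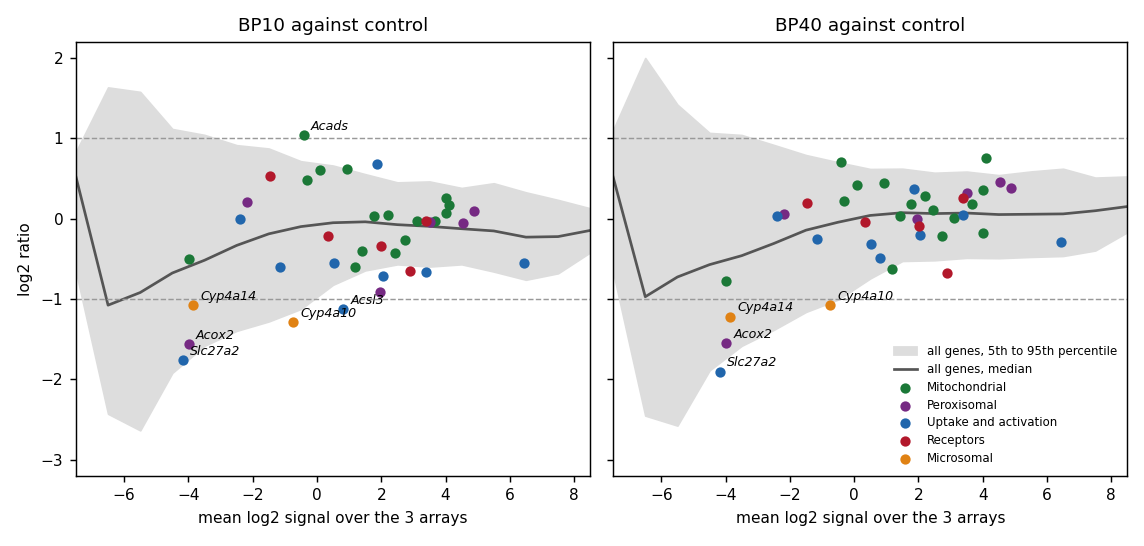
Log2 ratio to the control array (vertical axis) against the mean log2 signal over the 3 arrays (horizontal axis) for the 38 genes, colored by class, at BP10 (left) and BP40 (right). The grey band holds the 5th to the 95th percentile of all 35451 genes in steps of 1 log2 unit and the line their median. At BP10 the median lies below 0 in every step except the dimmest. At BP40 it lies below 0 in the steps of signal under 0, again except the dimmest. Names mark the called genes, and dashed lines the 2-fold limit.

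The start regions of these genes were searched for the motif that PPAR, RXR and other nuclear receptors bind. RefSeq (GRCm38.p6) gave a start region for 31 of the 38 genes, and the 250 bases before the start were read on both strands. The hexamer AGGTCA, which reads as TGACCT on the other strand, was found in 7 of the 31 genes (22.6%): Cpt1a, Acadm, Acadvl, Scp2, Slc27a2, Rxra and Rxrg. It was found in 14.0% of all 32851 such regions, or 15.8% of 27025 genes with 1 or more regions. The repeat of that hexamer with 1 base between, searched as AGGNCANAGGNCA so that it contains the hexamer where N is T, was found in 0 of the 31 genes and in 0.338% of all regions. A match is a description of the letters only. The regions of 3 genes are shown, those of the most strongly down-regulated transporter, of the most strongly down-regulated oxidase and of the gate of the carnitine shuttle, with the hexamer in capitals. In Slc27a2 it began 220 bases before the start (chr2:126552774-126553023, plus strand), in Cpt1a 94 bases before the start (chr19:3323051-3323300, plus strand), and in Acox2 none was found (chr14:8259020-8259269, minus strand). RefSeq gives Acox2 a further start, whose region (chr14:8258840-8259089) overlaps the one shown and also held none.
Slc27a2: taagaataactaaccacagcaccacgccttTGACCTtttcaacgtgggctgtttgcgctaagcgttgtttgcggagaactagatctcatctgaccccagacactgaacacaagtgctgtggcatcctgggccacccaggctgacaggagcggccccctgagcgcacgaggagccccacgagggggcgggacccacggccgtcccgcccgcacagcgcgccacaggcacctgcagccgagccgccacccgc
Acox2: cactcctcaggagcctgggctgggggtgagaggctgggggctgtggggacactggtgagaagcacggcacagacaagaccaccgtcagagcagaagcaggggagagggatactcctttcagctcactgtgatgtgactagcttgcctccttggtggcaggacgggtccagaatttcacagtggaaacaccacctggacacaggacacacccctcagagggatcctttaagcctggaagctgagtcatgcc
Cpt1a: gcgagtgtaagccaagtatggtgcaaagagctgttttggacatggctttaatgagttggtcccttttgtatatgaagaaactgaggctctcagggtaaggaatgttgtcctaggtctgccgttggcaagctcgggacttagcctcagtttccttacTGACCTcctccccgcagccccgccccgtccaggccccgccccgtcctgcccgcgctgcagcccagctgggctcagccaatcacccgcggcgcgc

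The mitochondrial genes were spread around 0. Of these 16 genes, 9 had a log2 ratio above 0 at BP10 and 12 at BP40, with medians of 0.04 and 0.18. Over the whole array it was above 0 for 12368 of 35451 genes at BP10 and for 15007 at BP40. Among the 16014 genes with a mean log2 signal of -2 or more, it was above 0 for 6251 and 8493. The ratios ranged from -0.61 to 1.04 at BP10 and from -0.78 to 0.76 at BP40. Acads, the acyl-CoA dehydrogenase of short chains, had a log2 signal of -0.99 without BP, 0.05 at BP10 and -0.29 at BP40. Both BP arrays lay above the control. The log2 ratio of Acads was 1.04 (2.06-fold) at BP10, which passed the 2-fold limit narrowly, and 0.70 at BP40, which did not pass it. Acads was measured by 1 probe (chr5:115560887-115560946 of mm9), and with the normexp correction its log2 ratio at BP10 was 0.74.

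The brightest mitochondrial genes were under 2-fold at both doses. Decr1, the reductase that handles dienoyl-CoA from unsaturated fatty acids, had log2 signals of 3.79 without BP, 3.96 at BP10 and 4.55 at BP40. Its log2 ratio of 0.76 at BP40 was the highest of the 16 at that dose, though the other Decr1 probe gave 0.21. Acadvl, the dehydrogenase of very long chains, had log2 signals of 3.81, 4.07 and 4.18 on control, BP10 and BP40, with log2 ratios of 0.26 and 0.36. Acaa2, the thiolase of the last step, had log2 signals of 4.04, 4.11 and 3.86, with log2 ratios of 0.07 and -0.18. The signal of Acadvl was lowest without BP, and that of Acaa2 was lowest at BP40.

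Cpt1a makes acylcarnitine at the outer mitochondrial membrane and is the known control point of mitochondrial fatty acid entry. Its brighter probe (chr19:3385374-3385433 of mm9) was printed 10 times on each array. The mean log2 signal over these spots was 1.60 ± 0.07 without BP, 0.99 ± 0.07 at BP10 and 0.97 ± 0.06 at BP40 (SD, 10 spots each). The spots of the control ranged from 1.49 to 1.71, those of BP10 from 0.85 to 1.08 and those of BP40 from 0.89 to 1.07. No control spot overlapped the spots of either BP array, whereas the BP arrays overlapped each other. The share of all probes with 10 spots that also did not overlap between arrays was not computed. These spots lie on the same array and share 1 RNA, so they measure the array and not the cultures. The log2 ratios of -0.61 and -0.63 were under 2-fold at both doses. A dimmer Cpt1a probe (chr19:3384060-3384119) had log2 signals of -2.98, -2.04 and -3.14 on control, BP10 and BP40, so its log2 ratio was 0.95 at BP10, opposite in sign, and -0.15 at BP40.

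The other steps of the carnitine shuttle did not share one direction. Cpt2, which turns acylcarnitine back into acyl-CoA inside the mitochondrion, had log2 signals of 2.54 without BP, 2.12 at BP10 and 2.65 at BP40, with log2 ratios of -0.42 and 0.10. Its dimmer probe had log2 ratios of 0.83 and 0.41. Slc25a20, the carrier that moves acylcarnitine across the inner membrane, had log2 signals of -0.54, -0.07 and -0.32, with log2 ratios of 0.47 and 0.22. Cpt1b, the muscle form of the shuttle's outer enzyme, was dim, with log2 signals of -3.56, -4.07 and -4.34 and log2 ratios of -0.51 and -0.78. None of these 3 genes was called.

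Enzymes of the oxidation spiral mostly lay near 0. Acadm and Acadl, the dehydrogenases of medium and long chains, had log2 ratios of -0.27 and -0.41 at BP10 and of -0.22 and 0.03 at BP40. Hadhb, the partner of Hadha in the trifunctional protein, was at -0.03 and 0.18, and Hadh, the dehydrogenase of short hydroxyacyl chains, at 0.05 and 0.28. The isomerases Eci1 and Ech1, which shift double bonds, were at -0.03 and 0.03 at BP10 and at 0.00 and 0.18 at BP40. Of the 4 acyl-CoA dehydrogenases, Acads and Acadvl were above 0 at both doses and Acadm was below 0 at both.

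Acaa2 and Ppara were also printed more than once. The Acaa2 spots ranged from 3.89 to 4.18 on the control array (9 spots used, 1 was flagged as an outlier), from 4.01 to 4.19 on BP10 and from 3.69 to 3.92 on BP40, so that the control overlapped both BP arrays and BP10 did not overlap BP40. Ppara encodes the PPAR known for fatty acid oxidation in liver. Its brightest probe had 2 spots, which read -0.42 and 1.30 on the control array, 0.08 and 0.35 on BP10, and 0.35 and 0.45 on BP40. The 2 control spots of Ppara lay farther apart than any difference between the arrays on this probe. A dimmer Ppara probe, above background on every array, had log2 ratios of -0.88 and -0.23. The remaining one, above background without BP and on neither BP array, had -1.37 and -0.27.

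**Figure D3:**
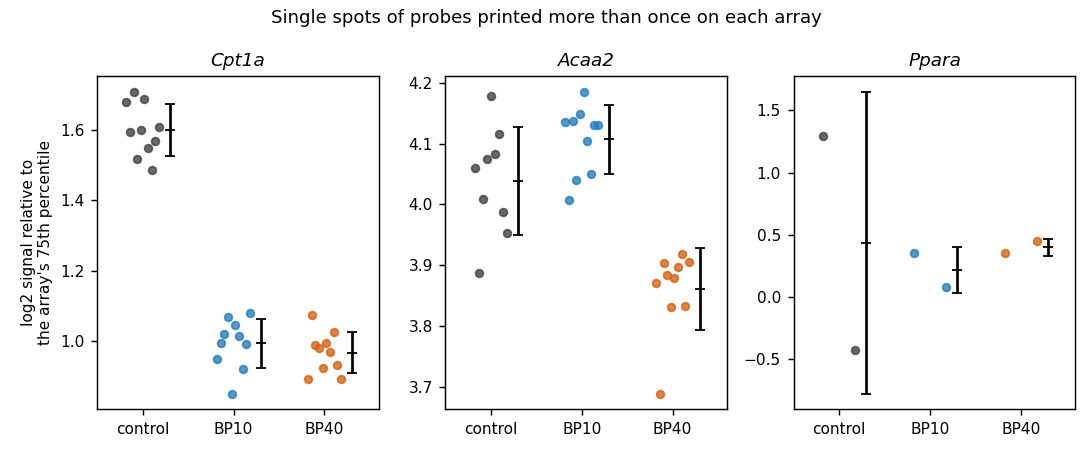
Log2 signal relative to the 75th percentile of the array (vertical axis, a separate scale in each panel) of the single spots of Cpt1a, Acaa2 and Ppara on the 3 arrays (horizontal axis). Bars are the mean and SD over spots of 1 array, not over cultures. The control spots of Cpt1a, from 1.49 to 1.71, lie above all spots of BP10 and BP40.

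Among the 6 peroxisomal genes, Acox2 stood apart. Acox2, the oxidase that acts on branched chains and bile acid intermediates, had a log2 signal of -2.95 without BP, -4.51 at BP10 and -4.50 at BP40. Both BP arrays lay below the control and close to each other. The log2 ratio was -1.56 (2.96-fold lower) at BP10 and -1.55 (2.93-fold lower) at BP40, read by 1 probe (chr14:9058141-9058200 of mm9). At its brightness, a mean log2 signal of -4 to -3, 25.2% of all genes were called lower at BP10 and 24.2% at BP40. After the median ratio of genes of the same brightness was subtracted, Acox2 was at -0.91 at BP10 and at -0.999 at BP40, the latter just short of the limit.

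The other peroxisomal genes were not called. Acaa1a, the peroxisomal thiolase, had log2 signals of 4.73 without BP, 4.82 at BP10 and 5.11 at BP40, with log2 ratios of 0.09 and 0.38. Scp2, which encodes sterol carrier protein and a thiolase of branched chains, had log2 signals of 4.40, 4.34 and 4.86, with log2 ratios of -0.06 and 0.45. Hsd17b4, the bifunctional protein of the peroxisomal route, had log2 signals of 3.43, 3.39 and 3.75, with log2 ratios of -0.04 and 0.32. Each of these 3 bright genes was highest on BP40, and each difference was smaller than 2-fold. Over all 6 peroxisomal genes the log2 ratio had a median of -0.05 at BP10, 0.19 at BP40 and 0.33 for BP40 against BP10. Ehhadh, the inducible bifunctional enzyme of peroxisomes, was dim, with log2 ratios of 0.21 and 0.06.

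Of the 9 uptake and activation genes, 2 were called at BP10 (22.2%, beside 13.0% of all genes) and 1 at BP40 (11.1%, beside 11.6%). The log2 ratio was below 0 for 8 of the 9 at BP10, Acsl1 at -0.00 among them, and for 6 at BP40, with medians of -0.61 and -0.25. Over the whole array it was below 0 for 23083 of 35451 genes at BP10 and for 20444 at BP40. Slc27a2, a transporter that also activates very long chains, had a log2 signal of -2.96 without BP, -4.72 at BP10 and -4.86 at BP40. It was dim on every array and lower on both BP arrays. Its log2 ratio of -1.76 (3.39-fold lower) at BP10 and -1.90 (3.74-fold lower) at BP40 was the largest among the 38 genes at each dose, and Slc27a2 was the only one of them past 3-fold. At its brightness, a mean log2 signal of -5 to -4, 30.6% of all genes were called lower at BP10 and 26.0% at BP40. After the median of genes of the same brightness was subtracted, its log2 ratios were -1.13 and -1.39, still past 2-fold. Slc27a2 was read by 1 probe (chr2:126413890-126413949 of mm9).

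Acsl3, an acyl-CoA synthetase of the endoplasmic reticulum and lipid droplets, was brighter. Its log2 signal was 1.36 without BP, 0.23 at BP10 and 0.87 at BP40. BP10 was the lowest and BP40 lay between the other arrays. The log2 ratio was -1.13 (2.19-fold lower) at BP10, where 3.27% of all genes of that brightness were called lower, and -0.49 at BP40. With the normexp correction the ratio at BP10 was -0.97, just under the limit.

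The brightest genes of this class were Fabp5, Acsl4 and Fabp3. Fabp5, a fatty acid binding protein of skin and many cultured cells, had log2 signals of 6.72 without BP, 6.17 at BP10 and 6.43 at BP40, with log2 ratios of -0.55 and -0.29. Acsl4, the synthetase that prefers arachidonic acid, had log2 signals of 3.60, 2.93 and 3.64, with log2 ratios of -0.67 and 0.04. Fabp3, the binding protein of heart and muscle, had log2 signals of 2.35, 1.64 and 2.14, with log2 ratios of -0.71 and -0.20. All 3 genes were lowest on BP10, and none was called. The transporters Slc27a1 and Slc27a4 had log2 ratios of -0.55 and -0.61 at BP10 and of -0.31 and -0.25 at BP40. Acsl5, a mitochondrial synthetase chosen after its values were seen, was the 1 gene of this class above 0 at BP10, with log2 ratios of 0.68 and 0.37.

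**Figure D4:**
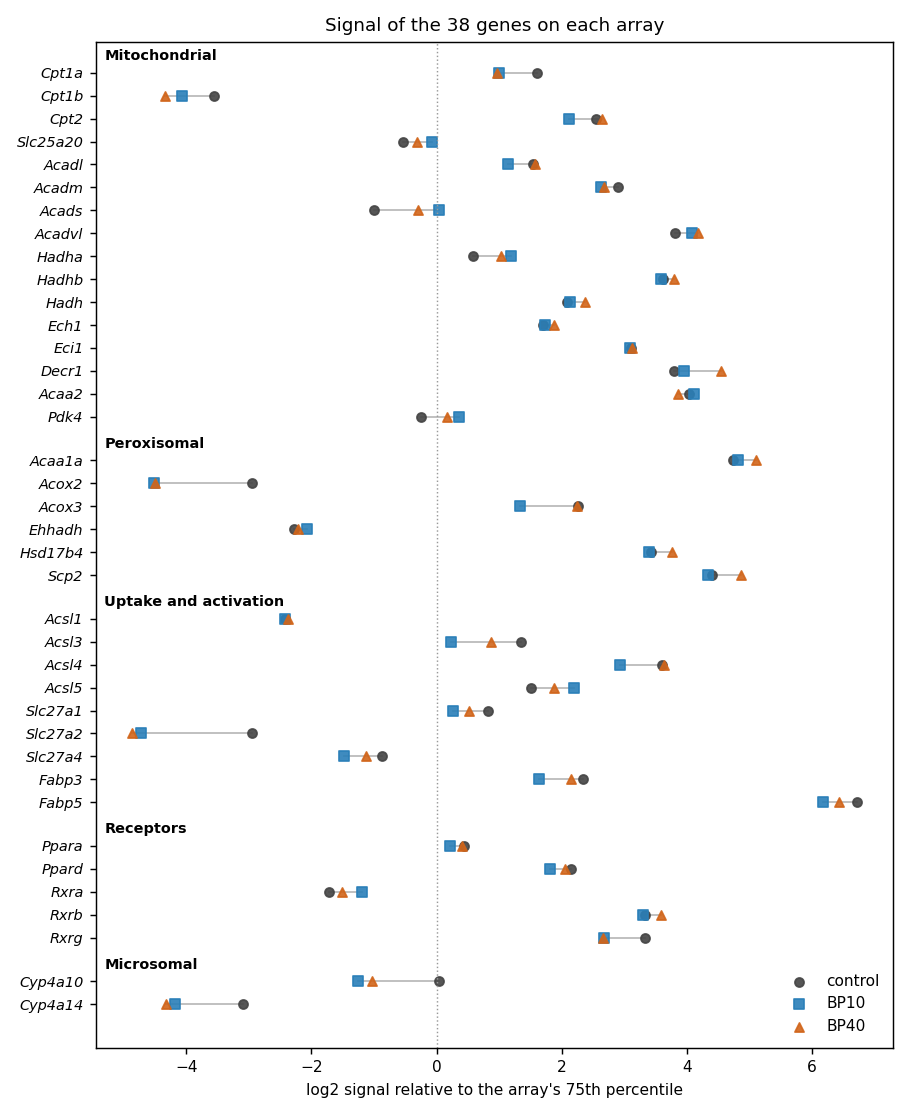
Log2 signal relative to the 75th percentile of each array (horizontal axis) of the 38 genes (vertical axis, grouped by class) on the control, BP10 and BP40 arrays, 1 array each, with a grey line from the lowest to the highest value of a gene. Signals of different genes come from different probes and are not compared. The widest gaps between control and BP are those of Slc27a2 and Acox2 at the dim end.

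The 5 receptor genes were not called. Rxrb had log2 signals of 3.32 without BP, 3.29 at BP10 and 3.58 at BP40, with log2 ratios of -0.03 and 0.26. Rxrg had log2 signals of 3.33, 2.68 and 2.66, with log2 ratios of -0.65 and -0.67. Ppard, the PPAR of broad expression, had log2 signals of 2.15, 1.80 and 2.05, with log2 ratios of -0.34 and -0.10. Rxra had log2 ratios of 0.53 and 0.19, and of 0.07 and 0.58 on its other probe. Rxrg was lower on both BP arrays than on the control, and its dimmer probe gave log2 ratios of -1.40 and -1.44. With the median over every probe in place of the brightest one, Rxrg was at -1.03 and -1.06, past 2-fold at both doses, and Cyp4a10 was no longer called.

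The 2 microsomal genes encode omega-hydroxylases of fatty acids and are known PPAR targets in liver. Cyp4a10 had a log2 signal of 0.04 without BP, -1.25 at BP10 and -1.04 at BP40, and thus log2 ratios of -1.29 (2.44-fold lower) and -1.08 (2.11-fold lower). Cyp4a14 had a log2 signal of -3.10 without BP, -4.18 at BP10 and -4.32 at BP40, and thus log2 ratios of -1.08 (2.11-fold lower) and -1.22 (2.33-fold lower). Both genes were past 2-fold lower at BP10 and at BP40. At the brightness of Cyp4a10, a mean log2 signal of -1 to 0, 7.35% of all genes were called lower at BP10 and 5.11% at BP40. At that of Cyp4a14, -4 to -3, the shares were 25.2% and 24.2%. The median log2 ratio of the pair was -1.18 at BP10 and -1.15 at BP40. Quantile normalization brought Cyp4a14 to -0.70 and -0.84, and subtraction of the brightness median to -0.43 and -0.68, so its calls were lost under either.

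Cyp4a10 rested on 1 of its 3 probes. The probe used (chr4:115206200-115206259 of mm9) overlapped a dim one (chr4:115206150-115206209) by 10 bases, and the last 30 bases of the dim probe and the first 30 of the probe used are shown to place them, with the shared 10 bases in capitals. The dim probe had log2 ratios of -0.87 and -0.58. The remaining probe (chr4:115198463-115198522) had 0.88 and 0.25, opposite in sign. Cyp4a10 has close copies among the neighboring Cyp4a genes, so its value is uncertain, and which copies each probe reads was not tested.
Cyp4a10 dim probe: tctacctgattaatcctcacACGAGTTTCT
Cyp4a10 probe used: ACGAGTTTCTccatcttccctcctttctgc

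Probes of a gene also differed where they read nearly the same bases. The 2 probes of Fabp3 overlap by 51 of 60 bases, and their first 30 bases are shown with the shared stretch in capitals (chr4:129992643-129992672 and chr4:129992652-129992681 of mm9).
Fabp3 other probe: tttatttttTAAAACTGTATCCAAAGGGTG
Fabp3 probe used: TAAAACTGTATCCAAAGGGTGctccaaggt

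The other Fabp3 probe had log2 ratios of -0.04 at BP10 and 0.45 at BP40, beside -0.71 and -0.20 for the probe used. At BP10 the gap between these probes was nearly as large as the ratio of the probe used. Of the 38 genes, 12 had more than 1 probe, 53 probes in all. Acox3, a peroxisomal oxidase of branched chains chosen after its values were seen, had log2 ratios of -0.91, 0.12 and 0.01 at BP10 on its 3 probes. For Acsl1, the main synthetase of fat and liver, the probe used was dim (log2 signals of -2.42 without BP, -2.42 at BP10 and -2.38 at BP40). The brighter Acsl1 probe had log2 signals of 1.17 on the control array and 1.05 on BP40, and its BP10 spot was flagged as an outlier.

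**Figure D5:**
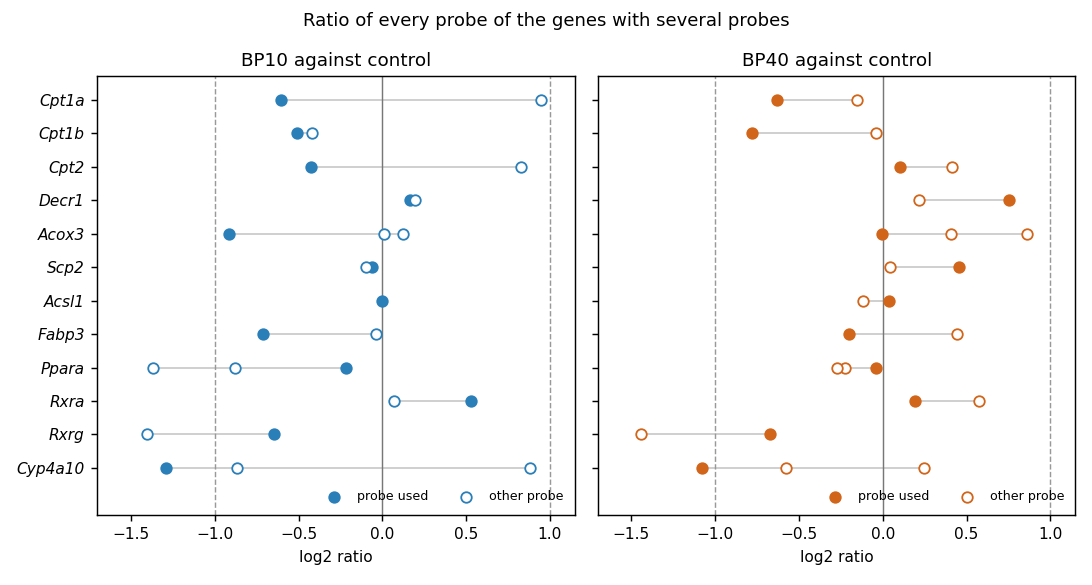
Log2 ratio to the control array (horizontal axis) of every probe of the 12 genes with several probes (vertical axis), at BP10 (left) and BP40 (right). Filled circles are the probe used for the gene and open circles its other probes, and dashed lines mark 2-fold. Probes of Cpt1a and Cyp4a10 lie on both sides of 0 at BP10, each with values at least 0.5 from 0.

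BP40 and BP10 were scanned together, and 0 of the 38 genes were called between them, beside 3.65% of all genes, 1.88% higher and 1.77% lower. The bright E1A probes had a median log2 ratio of 0.77 between these arrays. A scale set by the E1A probes would put every ratio here lower, and the calls on it were not computed. The median log2 ratio of BP40 against BP10 was 0.17 for the 38 genes and 0.06 for all genes. That of the 38 genes was 0.08 with a scale set by the probes above background everywhere, 0.05 with quantile normalization and 0.0084 after the brightness subtraction. In all, 31 of the 38 were within 0.5 of 0. The ratio was above 0 for 25 genes and below 0 for 13, and over the whole array above 0 for 20572 genes and below 0 for 14879. At a limit of 1.5-fold, 4 of the 38 genes (10.5%) were higher at BP40 and none was lower. Of all genes, 13.3% were called at that limit, 7.81% higher and 5.53% lower. These were Acox3, Acsl4, Acsl3 and Decr1, with log2 ratios of 0.91, 0.71, 0.64 and 0.59, named after their values were seen. Acox3 had log2 signals of 2.25 without BP, 1.34 at BP10 and 2.25 at BP40, so that BP40 was level with the control. The other Acox3 probes gave 0.74 and 0.40 for BP40 against BP10.

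Known PPAR response genes were counted next. Of 10 such genes among the 38 (Pdk4, Cpt1a, Slc25a20, Acadvl, Hadha, Ehhadh, Cyp4a10, Cyp4a14, Acsl1 and Fabp3), 2 were down-regulated at each dose (20%) and none was up-regulated, with median log2 ratios of 0.10 and 0.05. Of all genes, 10.3% were called lower at BP10 and 9.00% at BP40. The 2 down-regulated genes were the microsomal pair. Pdk4, the kinase that shuts off pyruvate oxidation, had log2 signals of -0.25, 0.35 and 0.17 on control, BP10 and BP40. Hadha, a subunit of the mitochondrial trifunctional protein, had 0.58, 1.20 and 1.03. Both were higher on the BP arrays by less than 2-fold, with log2 ratios of 0.60 and 0.42 for Pdk4 and of 0.61 and 0.44 for Hadha. Of 11 other PPAR response genes, 2 were down-regulated at BP10 (18.2%) and 1 at BP40 (9.09%), with median log2 ratios of -0.25 and 0.11.

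A list of 61 other genes of the pathway was counted for comparison. At BP10, 1 was up-regulated and 2 were down-regulated, and at BP40 1 was up-regulated and 1 down-regulated, with median log2 ratios of -0.24 and 0.09. These are 4.92% and 3.28% of the list, beside 13.0% and 11.6% of all genes. Among all genes with a mean log2 signal of -2 or more, 5.26% and 4.21% were called, and among dimmer ones 19.3% and 17.7%. The list held genes of both kinds and was not split by brightness. The up-regulated gene was Pparg, the PPAR known for fat cell formation. Its log2 signal was -0.04 without BP, 1.43 at BP10 and 1.21 at BP40, with log2 ratios of 1.47 and 1.25. Angptl4, a secreted inhibitor of lipoprotein lipase, was down-regulated at both doses, with log2 signals of 0.70, -0.37 and -0.83 and log2 ratios of -1.06 and -1.53. Acot1, an acyl-CoA thioesterase, had a log2 ratio of -1.15 at BP10, not called at BP40, and was 1 of 3 genes called between the doses, where its log2 ratio of BP40 against BP10 was 1.51. The other two were Fabp7, a binding protein of brain, at -1.34, and Cyp4a12a, another omega-hydroxylase, at -1.10. These 3 genes were named after their values were seen.

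Markers of cell types were read beside these values. A summed log2 level is the log2 of the signals of a list added on the linear scale, so its brightest markers set most of it. All 10 fibroblast markers were above background on every array, with a summed log2 level of 10.39 without BP, 9.90 at BP10 and 10.07 at BP40. Of these 10, Lum and Dcn were down-regulated at BP10 and Lum and Col3a1 at BP40, and the median log2 ratio was -0.66 and -0.63. Slc27a2, Acox2 and the Cyp4a genes are known mainly from liver and kidney. Of 6 hepatocyte markers, 4 were above background without BP, 2 at BP10 and 3 at BP40, with summed log2 levels of -0.43, -1.54 and -1.30, and Alb and Ttr were above background on none. Cyp2e1 carried most of that sum, with log2 ratios of -1.25 and -1.17, and was the only hepatocyte marker called. Of the 6, those below background included, 5 had a log2 ratio below 0 at BP10 and 3 at BP40. The medians were -0.63 and -0.05. Of 7 adipocyte markers, 7, 5 and 6 were above background, with summed log2 levels of 0.52, 0.35 and 0.32. That sum was mostly Fabp4, with log2 ratios of 0.18 and 0.07. Lep and Cfd were down-regulated at BP10 and Lep at BP40. Of the 7, 6 had a log2 ratio below 0 at BP10 and 5 at BP40, with medians of -0.61 and -0.34. Adipoq was above background without BP and on neither BP array, and was not called. For 8 muscle markers the summed log2 levels were 4.01, 4.04 and 4.10, with 8, 7 and 6 above background. That sum was mostly Acta1, and 6 of the 8 had a log2 ratio below 0 at BP10 and 7 at BP40, with medians of -0.39 and -0.66. For 6 macrophage markers, all above background on every array, the summed levels were 5.03, 4.71 and 4.87, while Lyz2 alone was called, higher at both doses with log2 ratios of 1.10 and 1.26. The part of other cell types in the ratios of the 38 genes was not tested.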

How the data were processed

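Total RNA of 3 MEF samples was labeled with Cy3 and hybridized to 1-colour Agilent arrays. The authors deposited the scanner output of Feature Extraction 10.5.1.1, whose processed intensity per spot had its background removed on each array alone, with no scaling across arrays. Values of the deposited series table matched it for 100% of spots (relative tolerance 0.0001), and 0 columns were left unmapped. The methods name GeneSpring GX and no normalization. Probe coordinates are those of mm9 (NCBI37), per the file headers.

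From the deposited intensity, log2 was taken and the 75th percentile of the gene spots of the array was subtracted. Outlier spots were left out and spots of a probe averaged. Of 55681 gene probes, 26425 were named through RefSeq and the others by the scanner file. Each gene was read from 1 probe, chosen by the number of arrays with signal above background and then by brightness. A call needed an absolute log2 ratio of 1 and signal well above background on 1 or both arrays. With 1, the other array entered at no less than its lowest signal well above background. With 1 array per condition no test was made, and precision is limited by the number of arrays. No spot was saturated.

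Per-array values are given for every gene of the 38 called in any comparison, for the 3 brightest genes of each class, and for probes of a gene that disagreed in sign at 0.5 or more. Other pathway genes are named where both doses called them in the same direction, and some more were named after their values were seen. Values of further genes of the 38 were added after they were seen. The members and lists were chosen with earlier results of these data known. Alternatives were a scale set by the probes above background everywhere, quantile normalization, normexp with an offset of 50, subtraction of a running median ratio over 1001 genes of like brightness, the median of all probes, no filter or a filter on both arrays, limits of 1.5-fold and 3-fold, and the series table. Python 3.11.15 with numpy 2.4.6, pandas 2.3.3 and matplotlib 3.10.9, and R 4.3.3 with limma 3.58.1, were used.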

Additional observations from a re-analysis of the deposited data

How the results depend on the processing

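No paired analysis was possible because there was 1 array per condition. Of 33 recomputed counts of called genes, 25 were within 1.5 times the reported count and 8 were not. Some of the 25 could not have differed. The series table held the same signals, and all 38 genes were above background on all 3 arrays. Counts from the series table, with no filter and with a filter on both arrays were therefore the same by construction. At BP10, 6 of the 38 genes were called, but 1 with the normexp correction, 15 at 1.5-fold and 1 at 3-fold. At BP40, 4 were called, but 0 with normexp, 2 after subtraction of the brightness median, 9 at 1.5-fold and 1 at 3-fold. For BP40 against BP10, 4 were called at 1.5-fold. All genes moved too: 28.5% and 26.6% were called at BP10 and BP40 at 1.5-fold, and 4.09% and 3.06% with normexp. The median of the 38 genes ranged from -0.16 to 0.06 at BP10, from -0.04 to 0.05 at BP40 and from 0.0084 to 0.17 for BP40 against BP10. The median log2 ratio of all genes shifted by 0.17 and 0.10 with quantile normalization and by 0.14 and 0.18 with normexp. Ratios of single genes were recomputed only for the 6 called genes and for Cpt1a, Rxrg, Decr1, Acox3, Acsl4, Hadha and Acsl1. Of 273 such ratios, 239 moved by less than the SD between 2 probes of a gene, 34 by more, and no called ratio changed sign. Some ratios that were not called did. With the median of all probes, Cpt1a at BP10 went from -0.61 to 0.17 and Acox3 from -0.91 to 0.01. The 239 include the ratios from the series table, which were also the same by construction. Retaining outlier spots, an alternative chosen after seeing the data, changed no count. The cause of these differences was not tested, and no alternative was scaled on the E1A probes.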
